A study of Homo sapiens with 6 samples.

Results

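Transducin is the heterotrimeric G protein that couples light-activated opsin to the cGMP phosphodiesterase of photoreceptors. Its 6 subunit genes were picked by symbol from the 36601 genes in the deposited matrices: GNAT1, GNB1 and GNGT1, which encode the alpha, beta and gamma subunits of rods, and GNAT2, GNB3 and GNGT2, which encode those of cones. All 6 symbols were found in every sample. The set and its comparisons were proposed with earlier results on these libraries in view, including lower GNGT1 and GNGT2 after transplantation, so the values below are not independent evidence for that pattern.

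In the dark the alpha subunit binds GDP and sits with the beta and gamma subunits at the disc membrane. Activated opsin exchanges the GDP for GTP, the alpha subunit leaves the beta-gamma pair and binds the inhibitory subunit of the phosphodiesterase, and cGMP-gated channels then close. The gamma subunit is farnesylated and anchors the beta-gamma pair, and RGS9 with GNB5 speeds the GTP hydrolysis that ends the signal. Rods and cones build the trimer from separate genes, although GNB1 is expressed in most tissues and GNB3 is also made by ON bipolar cells of the retina.

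The cells came from retinal organoids grown from the human embryonic stem cell line WA09, an established line that here carries a tdTomato reporter of CRX, a photoreceptor transcription factor. Organoids between day 113 and day 126 of differentiation were broken into fragments by trituration, in the transplanted and the cultured groups alike. Transplanted fragments spent 3 days in the subretinal space of normal dog eyes, and cultured fragments of the same organoid batch spent those 3 days in a dish. This was done in 3 independent experiments, called Sets, each giving 1 cultured and 1 transplanted sample for single-cell RNA sequencing from the 3' end of transcripts, so n = 3 per group. The organoids derive from 1 stem cell line, and the host eyes were normal. Unless stated otherwise, p-values come from fits with a term for the Set and measure how the within-Set change varied over these 3 experiments. Differences in level between Sets are taken up by that term, and edgeR moderates the variance of a gene with that of other genes.

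After filters and doublet removal 39008 cells remained, between 686 and 15045 per sample. Cells were called rods where NRL, the transcription factor of rod fate, had at least 3 UMIs (unique molecular identifiers, 1 per captured molecule) and more than PDE6H, the inhibitory phosphodiesterase subunit of cones. Cones had at least 3 PDE6H UMIs and more PDE6H than NRL. This gave 169 to 2974 rods, 34 to 2356 cones and 483 to 10113 other cells per sample, with the fewest in the transplanted sample of Set 2. Their summed depth was 2680951 to 47821267 UMIs for rods, 542401 to 18162730 for cones and 1612132 to 32009943 for other cells. Levels are given as CPM, the gene's UMIs per 1000000 UMIs of that class and sample, and are not divided by transcript length, so levels of different genes are not ranked. Any 2 libraries shared at most 40 cell barcodes, 0.729% of the smaller library at most.

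The gates held immature photoreceptors. In rods NR2E3, a nuclear receptor of rod fate, stood between 106 and 307 CPM, whereas SAG, rod arrestin, stayed between 0.729 and 5.34 CPM. In cones ARR3, cone arrestin, stood between 9.22 and 23.3 CPM, and the red opsin OPN1LW was at 0 in all 6 samples. The classes were not pure: 25.9% to 53.4% of rods held a PDE6H UMI and 50.0% to 86.8% of cones held an NRL UMI. Cells with 3 or more UMIs of both genes numbered between 55 and 1243 per sample. The other cells were not free of photoreceptor RNA either, with CRX at 23.8 to 205 CPM against 106 to 478 CPM in rods.

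The 5' flanks of GNGT1, which fell in rods after transplantation, and of GNAT1, the rod subunit with the smallest change there, are printed from RefSeq (GRCh38.p14), each as the 250 bases before the annotated start on the gene's own strand. In GENCODE 29 on GRCh38, GNGT1 (ENSG00000127928) spans chr7:93591573-93911265 on the plus strand, a locus of 319693 bases, and the RefSeq start used here lies within it. GNAT1 (ENSG00000114349) spans chr3:50191612-50196516 on the plus strand. Capitals mark the letters TGCTGA, the core of sites known for NRL.
GNGT1: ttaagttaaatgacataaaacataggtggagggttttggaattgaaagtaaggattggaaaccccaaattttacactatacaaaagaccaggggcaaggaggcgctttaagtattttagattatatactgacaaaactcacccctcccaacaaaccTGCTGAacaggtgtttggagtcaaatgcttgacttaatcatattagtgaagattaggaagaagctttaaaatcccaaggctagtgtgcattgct
GNAT1: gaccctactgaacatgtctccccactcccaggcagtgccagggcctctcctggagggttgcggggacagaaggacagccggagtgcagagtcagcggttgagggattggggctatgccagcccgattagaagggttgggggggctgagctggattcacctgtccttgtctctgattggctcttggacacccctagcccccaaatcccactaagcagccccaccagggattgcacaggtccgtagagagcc
The GNGT1 flank at chr7:93906317-93906566 holds 1 TGCTGA on the plus strand, 94 bases before the start. The GNAT1 flank at chr3:50191360-50191609 holds none. Both strands were searched for TGCTGA and for TAATCC, the core letters of CRX sites, and TAATCC was found in neither window. Of 35116 RefSeq promoters of this length, 14.02% hold TGCTGA and 5.621% hold TAATCC on either strand. Entries were matched for 4 of the 6 genes (GNAT1, GNAT2, GNB1 and GNGT1), and GNGT1 was the 1 gene of these with a match to either motif. A match is a description of letters and not of binding.

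The alpha subunits and GNGT1 in culture stood higher in the class they are named for in every sample, and the other subunits did not. These are descriptions without a test, since NRL and PDE6H of the same cells set the classes. GNAT1 was 2.65 to 4.53 times higher in rods than in cones in the 5 samples with GNAT1 UMIs in cones. GNAT2 (ENSG00000134183, chr1:109603267-109619929, minus strand) was lower in rods in all 6 samples, at 0.292 to 0.416 of its level in cones. GNB1 (ENSG00000078369, chr1:1785285-1891117, minus strand) was at 0.965 to 1.43 times its cone level in rods, and its levels in other cells, 99.2 to 365 CPM, overlapped those of both photoreceptor classes. GNB3 (ENSG00000111664, chr12:6839954-6847393, plus strand) stood at 0.747 to 1.33 times its cone level in rods and was 62.0 to 122 CPM in other cells, below every rod and cone value. GNGT1 was 3.32, 3.58 and 4.81 times higher in rods than in cones in the cultured samples of Sets 1, 2 and 3. In the transplanted samples the same ratios were 0.95, 3.32 and 1.70. GNGT2 (ENSG00000167083, chr17:49202791-49210574, minus strand), although named for cones, stood at 0.608 to 1.06 times its cone level in rods. Over the 6 samples the ranges of rods and cones overlapped for each subunit except GNAT2, whose 3 classes were apart. GNGT1 shares its long locus with other annotated transcripts of the same strand, and GNAT2, GNB3 and GNGT2 overlap genes of the other strand (GNAI3 and AMPD2, CDCA3, and ABI3). Whether the authors' counting used strand is not given in the sources used here, so reads from these overlaps are uncertain.

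**Figure D1:**
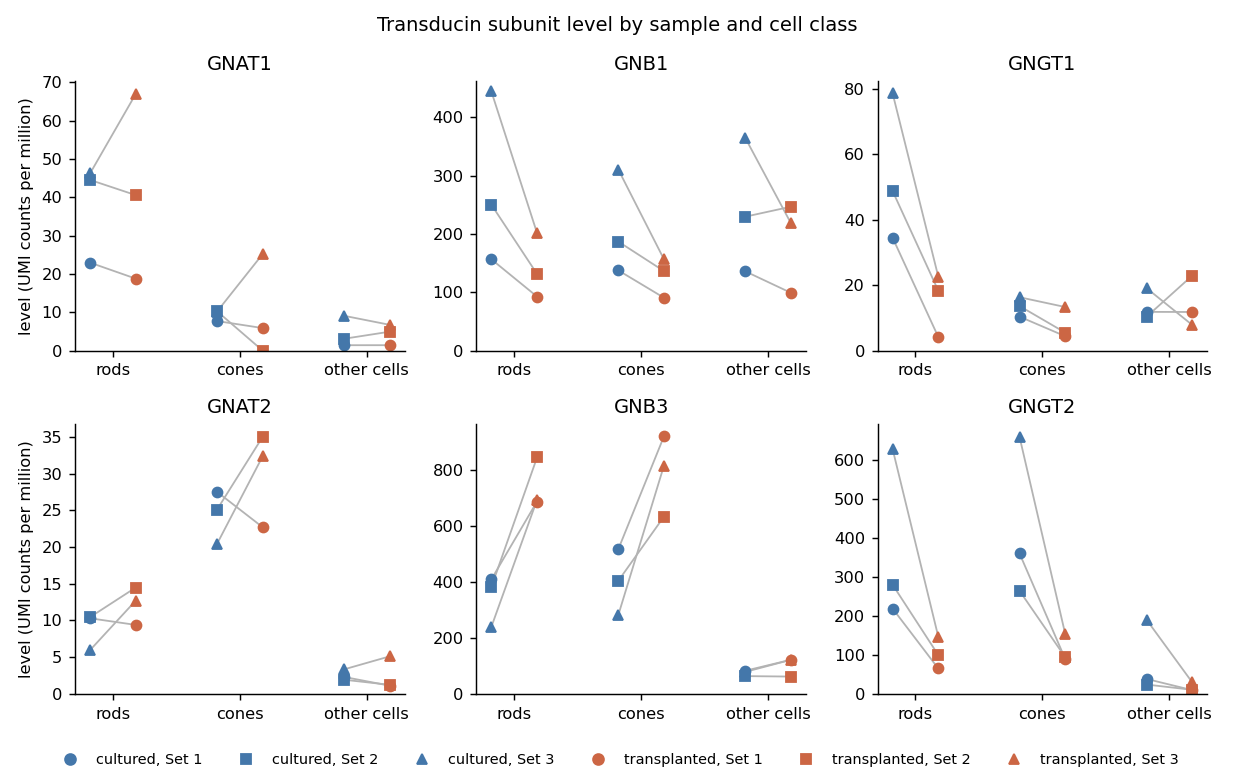
Level of each subunit in CPM (y axes, from 0, with separate scales) in rods, cones and other cells. Each point is 1 sample, a symbol is a Set, and a grey line joins the cultured (blue) and transplanted (orange) sample of a Set. GNGT2 is lower in the transplanted sample of every Set in all 3 classes, from 628.5 to 146.8 CPM in rods of Set 3.

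After transplantation, transcripts of both gamma subunits fell in rods and those of GNGT2 fell in cones and in other cells too. In rods edgeR called 2 of the 6 subunits lower and 0 higher at an adjusted p under 0.05, against 2.13% of the 17851 genes tested called lower and 4.27% called in either direction. In cones it called 1 of 6 lower, against 0.287% of 17406 genes lower and 0.488% in either direction. In other cells it called 1 of 6 lower, against 0.0888% of 20269 genes lower, 0.123% higher and 0.212% in all. The median log2 change over the 6 subunits was -0.29 in rods, -0.28 in cones and -0.17 in other cells, beside medians of -0.02, -0.03 and -0.02 over all genes. All fits carried a term for the Set. Without that term edgeR called 0 genes in each class (506 in rods, 322 in cones and 171 in other cells had an unadjusted p under 0.05), whereas DESeq2, run with the Set term, called 728, 126 and 199.

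GNGT1, the farnesylated gamma subunit of rods, stood at 34.5, 48.8 and 78.7 CPM in the cultured rods of Sets 1, 2 and 3 and at 4.21, 18.4 and 22.7 CPM in the transplanted rods. Every transplanted value lay below every cultured value, and within Sets the transplanted level was 0.122, 0.376 and 0.288 of the cultured one. The mean was 54.0 ± 22.5 CPM in culture and 15.1 ± 9.65 CPM after transplantation (SD, n = 3). The log2 change was -1.86 ± 0.30 (SE), with an adjusted p of 0.00625 by edgeR. Here and below the SE is derived from the edgeR test, as the absolute log2 change over the square root of its F statistic. This call ended without Set 3 (adjusted p = 0.0952 by edgeR).

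In cones GNGT1 was at 10.4, 13.7 and 16.3 CPM in culture and at 4.42, 5.53 and 13.4 CPM after transplantation. The transplanted cones of Set 2 rest on 3 UMIs of GNGT1 in 34 cells. The groups overlapped, and the log2 change of -0.77 ± 0.36 did not pass the test (edgeR adjusted p = 0.435). In other cells the values were 11.9, 10.4 and 19.1 CPM in culture and 11.8, 23.0 and 7.88 CPM after transplantation, with no common direction across Sets and a log2 change of -0.04 ± 0.36 (edgeR adjusted p = 0.986). That sign turned to 0.07 without the Set term and to 0.43 without Set 3.

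The difference between the rod and the cone response of GNGT1 was tested within samples and did not pass, at -1.22 ± 0.24 on the log2 scale (edgeR adjusted p = 0.169). In this comparison 0 of the 6 subunits were called, against 0.0206% of 19394 genes (0.0103% higher and 0.0103% lower), and edgeR gave an unadjusted p under 0.05 to GNGT1 alone of the 6 (6.1e-05). DESeq2 called 2 genes in all. The GNGT1 difference was called in 3 of 13 alternatives, with library totals in place of TMM scaling (adjusted p = 0.0403 by edgeR), without a filter on low counts and without Set 2. For GNGT2 the rod response minus the cone response was 0.14 ± 0.22, for GNB3 0.23 ± 0.25 and for GNB1 -0.14 ± 0.17, none of which passed.

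GNGT2, the gamma subunit of cones, was at 219, 280 and 629 CPM in cultured rods and at 65.2, 99.7 and 147 CPM in transplanted rods. No values overlapped, and the within-Set ratios were close to each other at 0.298, 0.356 and 0.234. The log2 change in rods was -1.61 ± 0.28 (edgeR adjusted p = 0.00527), and it was called under all 16 alternatives that kept the Set term. In rods with no PDE6H UMI, a gate chosen after the data were seen, GNGT2 stood at 173, 333 and 612 CPM in culture and at 42.7, 84.2 and 142 CPM after transplantation. The log2 change in those cells was -1.95 ± 0.25 (edgeR adjusted p = 0.00555), beside the -1.61 of all rods. The part of cone RNA in the GNGT2 values of rods was not tested.

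In cones GNGT2 was at 360, 264 and 659 CPM in culture and at 89.4, 94.0 and 154 CPM after transplantation, again without overlap. The log2 change was -1.82 ± 0.32 (edgeR adjusted p = 0.0253). This call ended without Set 2 (edgeR adjusted p = 0.195) and, by the narrowest margin, without Set 1 (edgeR adjusted p = 0.050001). In other cells the values were 38.4, 24.0 and 190 CPM in culture and 9.70, 10.5 and 29.8 CPM after transplantation. The groups overlapped there, since the transplanted sample of Set 3 lay above the cultured sample of Set 2, and the log2 change was -2.01 ± 0.27 (edgeR adjusted p = 0.0213). Without Set 1 that call ended (edgeR adjusted p = 0.472), and it also ended with equal cell numbers per sample (0.156) and with a gate on thinned cells (0.103).

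**Figure D2:**
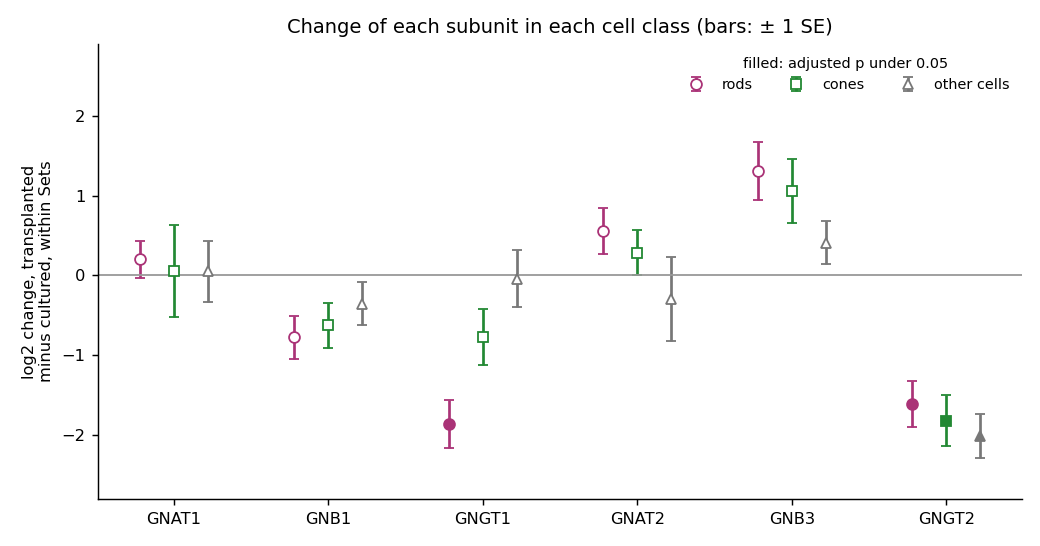
Log2 change of each subunit, transplanted minus cultured within Sets (y axis), in rods (circles), cones (squares) and other cells (triangles), with bars of 1 SE derived from the edgeR F statistic. Filled symbols have an edgeR adjusted p under 0.05: GNGT1 in rods at -1.86, and GNGT2 at -1.61 in rods, -1.82 in cones and -2.01 in other cells.

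Genes of dividing progenitors were also called lower in rods and cones, but not in other cells. Of 8 markers of dividing progenitors, edgeR called 6 lower in rods (TOP2A, MKI67, CENPF, CDK1, BIRC5 and UBE2C), 2 lower in cones (TOP2A and MKI67) and 0 in other cells. Over all genes tested, 2.13%, 0.287% and 0.0888% were called lower in these classes, and 2.13% higher in rods. Markers of other cell types were called in rods too: GAD1, PROX1, NEFL, S100B and ACTA2 lower, and RLBP1 and SERPINF1 higher. GRM6, GRIK1 and AIPL1 were also called, as given below. The summed level of the 8 progenitor markers in rods was 295 to 960 CPM in culture and 129 to 282 CPM after transplantation. In cones it was 163 to 625 and 103 to 210 CPM, and no marker of the list was at 0. The median share of mitochondrial UMIs in rods was 1.72%, 2.89% and 1.13% in culture and 4.35%, 3.42% and 3.27% after transplantation, and it was higher in the transplanted cones of every Set as well. The part of these in the lower gamma subunits was not tested. Myeloid markers summed to at most 6.34 CPM and red cell markers to at most 3.73 CPM in rods. In other cells, where GNGT2 fell too, 8 myeloid markers summed to 2.47, 9.34 and 10.9 CPM in culture and to 28.6, 67.0 and 41.7 CPM after transplantation, with 1, 2 and 4 of the markers at 0 in culture and none after transplantation. Of 6 myeloid markers tested there, TYROBP and FCER1G were called higher by edgeR. Red cell markers in other cells summed to 0.281, 1.10 and 10.3 CPM in culture and to 0.373, 57.7 and 169.5 CPM after transplantation, with HBB leading in Sets 2 and 3, and none of the 3 tested was called. The part of these markers in the lower GNGT2 of other cells was not tested.

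Fewer transplanted than cultured rods had a detected gamma subunit transcript in every Set. After thinning every cell to 1000 UMIs, which left out no cell, 20.4%, 31.1% and 43.5% of cultured rods and 8.48%, 13.0% and 13.6% of transplanted rods held a GNGT2 UMI. Before thinning these shares were 48.6%, 78.2% and 82.1% in culture and 30.9%, 44.4% and 57.0% after transplantation. Cells without a single UMI of CRX, RCVRN, NRL or PDE6H were set beside the rods. They were picked for lacking photoreceptor RNA and may include cells that express a subunit, so they do not measure free RNA. After thinning, 0.85% to 2.57% of these cells held GNGT2 in culture and 0.22% to 3.76% after transplantation. Their median depth was 1639 to 3059 UMIs, against 3210 to 6252 UMIs in rods.

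In cones the thinned shares for GNGT2 were 36.5%, 27.8% and 42.7% in culture and 11.4%, 11.8% and 13.5% after transplantation, and before thinning 69.2%, 89.5% and 91.9% against 42.7%, 55.9% and 70.1%. No transplanted value reached a cultured one after thinning, and all lay above the share in cells without photoreceptor UMIs.

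For GNGT1 the thinned shares in rods were 3.84%, 7.70% and 9.09% in culture and 0.45%, 2.37% and 1.80% after transplantation. Before thinning they were 10.6%, 33.9% and 31.0% in culture and 2.10%, 20.1% and 16.2% after transplantation. The cells without photoreceptor UMIs gave thinned shares of 0.64%, 0.81% and 1.72% in culture and 0.40%, 1.76% and 0.40% after transplantation. The transplanted rods of Sets 1 and 2 were therefore within 1 percentage point of the share in these cells, and the cultured rods were above it in every Set.

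**Figure D3:**
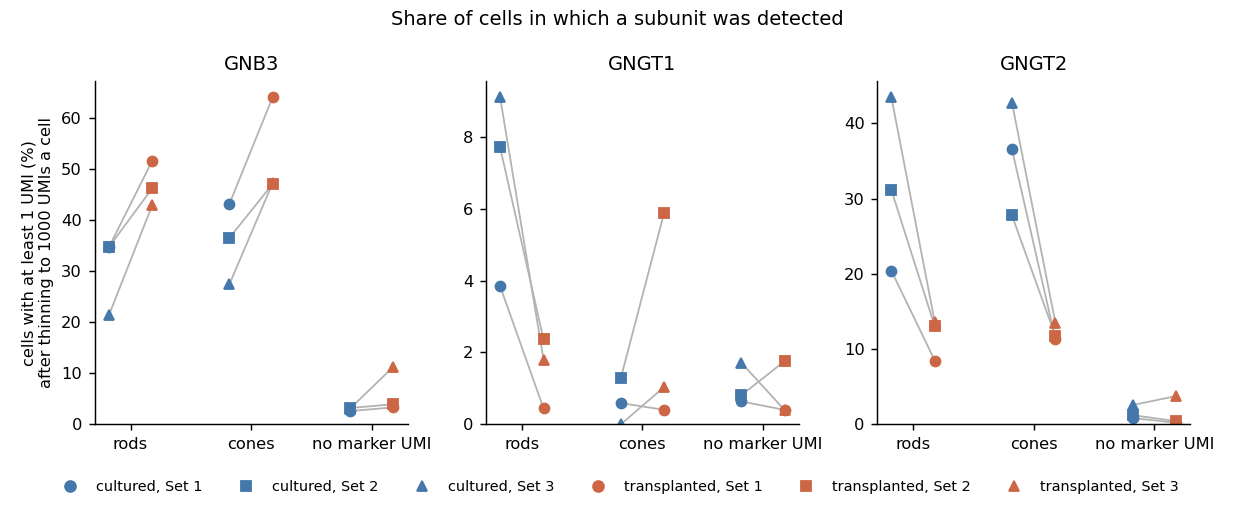
Percent of cells with at least 1 UMI of GNB3, GNGT1 and GNGT2 (y axes, from 0, with separate scales) after thinning each cell to 1000 UMIs, in rods, cones and cells without a UMI of CRX, RCVRN, NRL or PDE6H. Each point is 1 sample and grey lines join the samples of a Set; GNGT2 lies between 20.4% and 43.5% in cultured rods and between 8.48% and 13.6% in transplanted rods.

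The beta subunits did not pass the test in any class. GNB3, the cone beta subunit, stood at 409, 382 and 239 CPM in cultured rods and at 688, 846 and 694 CPM in transplanted rods. Every transplanted value lay above every cultured value, with ratios of 1.68, 2.21 and 2.898 within Sets. The log2 change in rods was 1.31 ± 0.37, and its adjusted p of 0.0537 by edgeR missed the threshold. It was called in 8 of 16 alternatives, among them DESeq2 (adjusted p = 0.000165), cells below the 1st percentile of clone-named transcripts left out (0.0094 by edgeR) and equal cell numbers per sample (0.0192 by edgeR).

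In cones GNB3 was at 517, 404 and 282 CPM in culture and at 921, 634 and 817 CPM after transplantation, also without overlap. Its log2 change there was 1.06 ± 0.40 (edgeR adjusted p = 0.327). In other cells it was 82.8, 63.6 and 78.7 CPM in culture and 122, 62.0 and 122 CPM after transplantation, with overlap and a log2 change of 0.41 ± 0.27 (edgeR adjusted p = 0.663). After thinning, 34.6%, 34.7% and 21.3% of cultured rods and 51.6%, 46.2% and 42.9% of transplanted rods held a GNB3 UMI, while 2.61% to 3.20% and 3.33% to 11.3% of cells without photoreceptor UMIs did. Before thinning the rod shares were 67.5%, 84.9% and 59.9% in culture and 86.9%, 91.1% and 87.9% after transplantation.

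PDE6H and the ON bipolar receptor GRM6 also had higher values in transplanted rods than in cultured rods within each Set. PDE6H, itself a gene of the gate, had within-Set ratios of 1.28, 1.68 and 3.33 in rods, a log2 change of 1.10 with an edgeR adjusted p of 0.108. In rods with no PDE6H UMI the GNB3 levels were 318, 372 and 234 CPM in culture and 476, 547 and 539 CPM after transplantation, with a log2 change of 0.86 ± 0.30 (edgeR adjusted p = 0.243). Of 8 bipolar cell markers, 7 were tested in rods and 6 in cones. By edgeR GRM6 was called higher and GRIK1 lower in rods, and none was called in cones. Over all genes tested, 2.13% were called higher and 2.13% lower in rods, and 0.488% in either direction in cones. The list summed to 178, 489 and 676 CPM in cultured rods and to 150, 388 and 538 CPM in transplanted rods, with no marker at 0, while GRM6 alone went from 22.5, 71.6 and 70.9 CPM to 62.8, 173 and 124 CPM. The part of bipolar RNA in the GNB3 values was not tested.

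GNB1, the beta subunit of rods and of many other cell types, was at 157, 250 and 445 CPM in cultured rods and at 92.8, 132 and 202 CPM in transplanted rods. It was lower in the transplanted rods of all 3 Sets, but the groups overlapped. The log2 change of -0.77 ± 0.27 did not pass (edgeR adjusted p = 0.116), and it was called only with DESeq2 (adjusted p = 0.0206) and with library totals (0.0241 by edgeR), 2 of 16 alternatives. In cones the values were 138, 187 and 311 CPM in culture and 90.8, 136 and 157 CPM after transplantation, with a log2 change of -0.63 ± 0.28 (edgeR adjusted p = 0.425). In other cells the log2 change was -0.35 ± 0.27 (edgeR adjusted p = 0.716).

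The alpha subunits, which bind the nucleotide and act on the phosphodiesterase, passed no test in rods or cones. GNAT1 was at 23.0, 44.5 and 46.3 CPM in cultured rods and at 18.8, 40.6 and 67.0 CPM in transplanted rods, lower after transplantation in Sets 1 and 2 and higher in Set 3. The log2 change was 0.20 ± 0.23 (edgeR adjusted p = 0.684). In cones GNAT1 was at 7.74, 10.3 and 10.2 CPM in culture and at 5.90, 0 and 25.2 CPM after transplantation. The 0 in the transplanted cones of Set 2 is 0 of 542401 UMIs, which allows up to 5.53 CPM at 3 counts, so a level near the 5.90 CPM of Set 1 was at the edge of detection there.

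GNAT1 was detected in few cells of its own class. After thinning, 2.60%, 7.97% and 4.83% of cultured rods and 3.06%, 8.88% and 7.94% of transplanted rods held a GNAT1 UMI, against at most 1.76% of cells without photoreceptor UMIs. Before thinning the rod shares were 8.81%, 37.0% and 19.9% in culture and 11.54%, 39.6% and 37.7% after transplantation. The thinned share was higher in the transplanted rods of every Set, with overlapping groups, while the CPM was higher only in Set 3, so no order is read from it.

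GNAT2 was at 27.5, 25.1 and 20.4 CPM in cultured cones and at 22.7, 35.0 and 32.4 CPM in transplanted cones. The groups overlapped, and the log2 change was 0.29 ± 0.28 (edgeR adjusted p = 0.754). In rods it stood at 10.3, 10.5 and 5.97 CPM in culture and at 9.40, 14.5 and 12.7 CPM after transplantation, with a log2 change of 0.56 ± 0.29 (edgeR adjusted p = 0.304). In cones with no NRL UMI, too few for a test, GNAT2 was at 39.1, 38.7 and 30.2 CPM in culture and at 21.9, 18.2 and 17.4 CPM after transplantation, lower in each Set, but the transplanted values rest on 27, 1 and 5 UMIs. In rods without a PDE6H UMI the GNAT2 level was 2.30 to 6.31 CPM in culture and 3.18 to 5.71 CPM after transplantation. In other cells the log2 change was 0.05 for GNAT1 (edgeR adjusted p = 0.982) and -0.29 for GNAT2 (0.895), at levels of at most 9.11 and 5.11 CPM.

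The gamma subunits made up a smaller share of the UMIs of the 6 subunits in transplanted than in cultured samples. Captured 3' ends of different genes need not be counted with equal efficiency, so these shares are read between samples and not as protein ratios. GNGT1 and GNGT2 together made up 29.7%, 32.4% and 49.0% of the subunit UMIs in cultured rods and 7.90%, 10.3% and 14.8% in transplanted rods. In cones they were 34.9%, 30.7% and 52.0% in culture and 8.27%, 10.998% and 13.9% after transplantation. In both classes every transplanted share lay below every cultured one.

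Among the beta subunits, GNB3 made up 72.3%, 60.4% and 35.0% of the UMIs in cultured rods and 88.1%, 86.5% and 77.5% in transplanted rods. In cones the GNB3 share was 79.0%, 68.4% and 47.6% in culture and 91.0%, 82.3% and 83.9% after transplantation. The groups did not overlap in either class. The lowest cultured share, in Set 3, came with the highest GNB1 level and the lowest GNB3 level of that class. GNGT1 was a minor part of gamma UMIs in rods throughout, at 13.6%, 14.8% and 11.1% in culture and 6.06%, 15.5% and 13.4% after transplantation. GNAT1 made up 69.0%, 81.0% and 88.6% of alpha UMIs in cultured rods and 66.7%, 73.7% and 84.0% in transplanted rods, lower after transplantation in each Set but with overlapping groups.

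**Figure D4:**
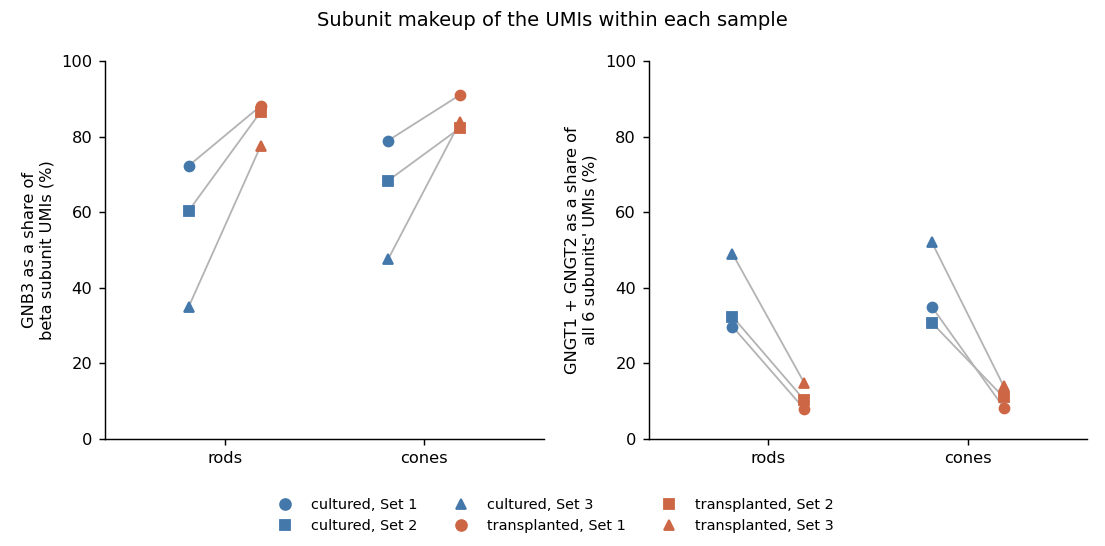
Share of beta subunit UMIs that were GNB3 (left) and share of the UMIs of all 6 subunits that were GNGT1 or GNGT2 (right), in percent, in rods and cones. Each point is 1 sample and grey lines join the samples of a Set; the gamma share is 29.7% to 49.0% in cultured rods and 7.90% to 14.8% in transplanted rods.

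Among listed genes that handle transducin, edgeR called RCE1 and RGS9 in rods and RGS9 in cones. Of 13 tested genes of this list in rods, which covers nucleotide exchange, prenylation, chaperoning and GTP hydrolysis, 1 rose and 1 fell. Over all genes tested in rods, 2.13% were called higher and 2.13% lower, and in cones 0.488% were called in either direction. Enrichment of the list was not tested. RGS9, the GTPase-accelerating protein that switches transducin off, was at 8.93, 21.0 and 28.3 CPM in cultured rods and at 4.21, 7.73 and 14.8 CPM in transplanted rods. It was lower in each Set with overlapping groups, and the log2 change was -0.97 ± 0.24 (edgeR adjusted p = 0.0299). In cones RGS9 was at 20.3, 23.8 and 34.1 CPM in culture and at 5.22, 7.37 and 12.3 CPM after transplantation, without overlap, and it was the 1 gene of the 13 called there (-1.61 ± 0.29, edgeR adjusted p = 0.0295). Leaving out Set 1 or Set 2 ended the RGS9 call in rods (edgeR adjusted p = 0.132 and 0.136) and in cones (0.322 and 0.119). The rod call also ended with NRL at least 3 times PDE6H (edgeR adjusted p = 0.206), with equal cell numbers (0.0857) and in rods with no PDE6H UMI (0.363), and the cone call with gates at 2 UMIs (0.0624) and at 5 UMIs (0.05002).

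RCE1, the protease that trims farnesylated proteins such as the gamma subunits, was at 9.11, 11.8 and 8.58 CPM in cultured rods and at 15.5, 20.045 and 12.7 CPM in transplanted rods, without overlap. Its log2 change in rods was 0.86 ± 0.23 (edgeR adjusted p = 0.0398). DESeq2 did not call it (adjusted p = 0.0958), and leaving out any 1 Set ended the call (edgeR adjusted p between 0.0848 and 0.160). It also ended with library totals, with a gate at 2 UMIs, with NRL at least 3 times PDE6H, with equal cell numbers and in rods with no PDE6H UMI (edgeR adjusted p between 0.0519 and 0.373). The log2 changes of PDC, phosducin, which binds the beta-gamma pair, of UNC119, which carries acylated alpha subunits, and of GNB5, the beta subunit partner of RGS9, were -0.15, 0.38 and 0.21 in rods, none of them called.

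Phototransduction genes outside the trimer gave 2 calls. Of 5 tested genes shared by rods and cones, GUCA1B and AIPL1 rose in rods and none fell, beside 2.13% of all tested genes called higher and 2.13% lower. GUCA1B, a calcium sensor of guanylate cyclase, was at 23.3, 58.5 and 40.3 CPM in cultured rods and at 72.8, 114 and 172 CPM in transplanted rods, without overlap (log2 change 1.72 ± 0.26, edgeR adjusted p = 0.0024). AIPL1, the chaperone of the photoreceptor phosphodiesterase, was at 248, 441 and 295 CPM in culture and at 483, 962 and 890 CPM after transplantation (log2 change 1.39 ± 0.36, edgeR adjusted p = 0.0376). The AIPL1 call ended when any 1 Set was left out (edgeR adjusted p between 0.0633 and 0.0781), with NRL at least 3 times PDE6H (0.0588), with the gate on thinned cells (0.057) and in rods with no PDE6H UMI (0.178).

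By edgeR 0 of 8 tested rod-specific and 0 of 7 tested cone-specific phototransduction genes were called in rods, although 3 of each had an unadjusted p under 0.05. By DESeq2 0 and 1 of them were called. In cones the same lists gave 0 of 7 and 0 of 7, with 3 and 0 at an unadjusted p under 0.05 and 0 called by DESeq2. In other cells edgeR called 0 genes of the lists on phototransduction, transducin handling and other G protein subunits, with at most 4 genes of a list at an unadjusted p under 0.05. By DESeq2 1 was called. CRX had a log2 change of -0.10 in rods and in cones and was not called in either.

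Among the other G protein subunits, GNG13 was the 1 gene called by edgeR, higher in rods and in cones. It was 1 of 10 gamma subunits tested in each class, beside 2.13% of all tested genes called higher in rods and 0.201% in cones. GNG13, the gamma subunit known from ON bipolar and taste cells, was at 9.66, 11.04 and 10.1 CPM in cultured rods and at 26.2, 35.0 and 17.9 CPM in transplanted rods. The groups did not overlap, and the log2 change was 1.51 ± 0.22 (edgeR adjusted p = 0.00156). The rod call did not hold in narrower gates: with NRL at least 3 times PDE6H the log2 change was 0.89 (edgeR adjusted p = 0.124), and in rods with no PDE6H UMI it was 0.01 (0.997). In cones GNG13 was at 17.9, 22.5 and 13.6 CPM in culture and at 50.1, 40.6 and 35.2 CPM after transplantation (1.31 ± 0.26, edgeR adjusted p = 0.039), a call that ended without Set 1 (edgeR adjusted p = 0.45) or Set 2 (0.0855), with a gate at 2 UMIs (0.0766), with the stricter cell filter (0.0509) and with equal cell numbers (0.296). GRM6, the receptor of ON bipolar cells, was called higher in rods as well, with the values given beside GNB3. GRIK1, of the same bipolar list, was called lower, and the summed level of the list was lower in the transplanted rods of each Set. The part of bipolar RNA in the GNG13 values was not tested. The 9 remaining gamma subunits tested were not called in rods or in cones. Of 11 other alpha subunits and 3 other beta subunits tested in rods, edgeR called 0, with 2 and 0 at an unadjusted p under 0.05 and 0 called by DESeq2.

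**Figure D5:**
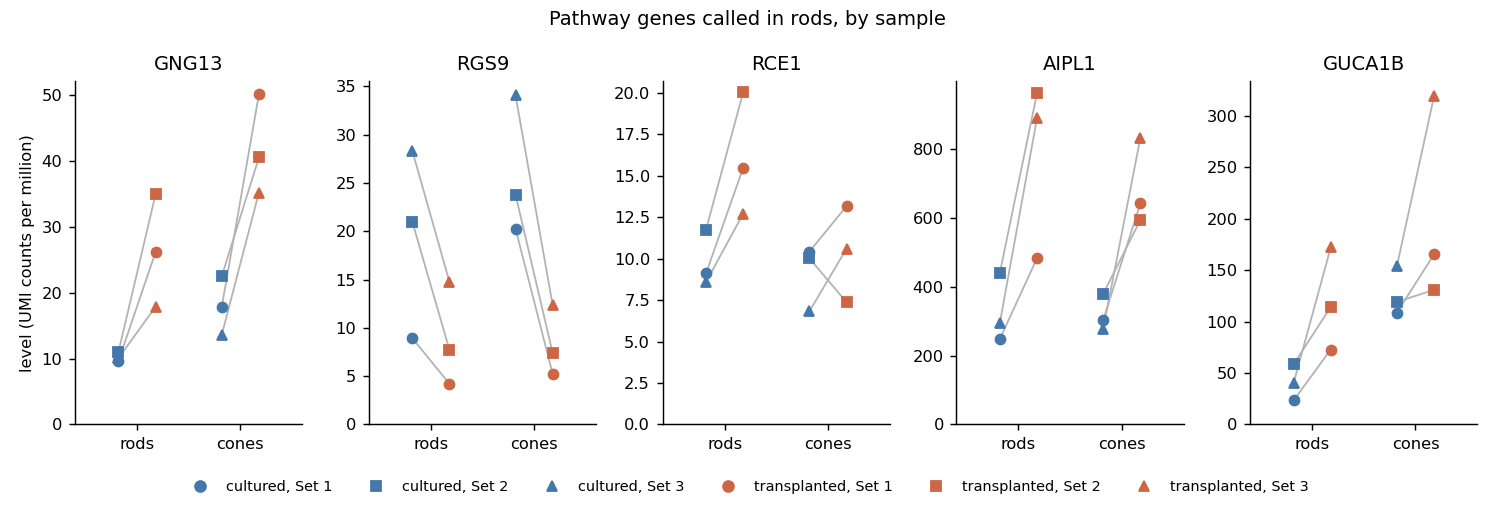
Level in CPM (y axes, from 0, with separate scales) of the 5 genes of the pathway lists that were called in rods, shown in rods and cones. Each point is 1 sample and grey lines join the samples of a Set; GNG13 goes from 9.66, 11.04 and 10.1 CPM in cultured rods to 26.2, 35.0 and 17.9 CPM in transplanted rods.

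The genes with the pattern most like each subunit were found by Pearson's r of log2(CPM + 1) over 18 values, 3 classes in each of 6 samples, among 10935 genes with a mean of at least 10 CPM. The 18 values share libraries and, within a sample, depth, so r is a description. GNAT2 was most like PDE6H (r = 0.97), which defines the cone class, and then LBH (0.968) and VXN (0.961). GNB3 was most like MESP2 (0.971) and LINC01053 (0.959), and GNGT2 most like ENO2 (0.957), SLC40A1 (0.954) and ZNF385A (0.953). GNB1 was most like CTNNA1 (0.974), NPLOC4 (0.966) and ZNF213-AS1 (0.964).

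The rod alpha and gamma subunits had less similar partners. GNAT1 was most like INSM2 (0.903), SLC6A17 (0.889) and WDFY3-AS2 (0.85), and GNGT1 most like NFE2L2 (0.789), PTPRZ1 (0.771) and MXRA5 (0.76). Among the subunits themselves the highest r was between GNAT2 and GNB3 (0.87), followed by GNB1 and GNGT1 (0.689), GNAT2 and GNGT2 (0.666) and GNAT1 and GNGT1 (0.593). GNB1 and GNB3 had the lowest r (-0.444).

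At the edge of the gate, rods with exactly 3 NRL UMIs and cells with 2, both with more NRL than PDE6H, had the following median levels over the 6 samples, given without a test. GNAT1 was at 17.99 CPM just inside and 6.07 CPM just outside, GNB3 at 262 and 157 CPM, and GNGT2 at 56.3 and 39.4 CPM. In the cultured sample of Set 3 GNGT2 went the other way, at 406 CPM inside and 497 CPM outside. The median of GNGT1 went the other way, at 5.41 CPM just inside and 18.2 CPM just outside. In the cultured samples GNGT1 had no common order, at 27.3, 8.84 and 61.5 CPM inside and 18.7, 17.7 and 49.7 CPM outside. In the transplanted samples it was lower inside in each Set, at 1.98, 0 and 0 CPM against 8.40, 21.9 and 6.24 CPM outside. Those levels rest on only 2, 0 and 0 UMIs inside and 11, 1 and 5 UMIs outside. At the edge of the cone gate the median of GNAT2 was 15.0 CPM just inside and 8.81 CPM just outside, that of GNB3 278 and 201 CPM and that of GNGT2 120 and 77.4 CPM. Single samples went the other way. In the cultured sample of Set 3 GNGT2 was at 392 CPM inside and 587 CPM outside, and GNB3 at 157 and 192 CPM. In the transplanted sample of Set 2 GNGT2 was at 0 and 47.6 CPM, on 3 and 11 cells.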

How the data were processed

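The authors deposited 1 matrix of raw UMI counts per sample, not normalized, made on GRCh38 with Cell Ranger 6.0.2 (Set 1) or 7.1.0 (Sets 2 and 3), per the file headers. Whether intronic reads were counted is not given in the sources used here, but the version was the same for the 2 samples of each Set. The libraries held 6850189 to 108222149 UMIs each, and limits drawn from counts cover counting error only.

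Cells were kept with at least 1000 UMIs, 500 genes and at most 20% mitochondrial UMIs. Scrublet (Scanpy 1.11.5, 30 components) scored doublets. The threshold it sets by itself marked at most 2 cells in a sample, so the highest-scoring cells were removed instead, 0.8% per 1000 deposited barcodes. Counts were summed per sample and class and tested with edgeR 4.0.16 (quasi-likelihood, filterByExpr, TMM, Benjamini-Hochberg over all genes) in R 4.3.3, with the Set as a block. On data simulated for rods (17815 genes), with a dispersion of 0.05 for every gene, this test recovered 93.88% of genes changed by 4-fold and 31.25% of those changed by 2-fold. In the same way it recovered 80.65% and 23.16% in cones and 88.42% and 27.96% in other cells. For the rod against cone response only 50% and 5.102% were recovered, so a change that did not pass there may have been missed. The rod against cone response was fitted with the sample as a block. DESeq2 1.42.0 was an alternative. The series' design ties each Set to 1 organoid batch, and deviations of same-numbered samples correlated across genes in all 3 classes (r between 0.322 and 0.93). Samples of Sets 2 and 3 correlated with each other as well (0.427 to 0.686), in each class above the 0.562 in rods, 0.322 in cones and 0.539 in other cells within Set 2, so the block rests on the stated batches.

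Named were all 6 subunits, the gate genes, CRX and RCVRN, up to 4 called genes per direction of each pathway list, and the 3 genes most like each subunit, of which 1 is not reported here. Genes of marker lists are named beside the results they were set against. Members, lists and tests were chosen with earlier results of these data known. Alternatives were other gates, cell filters, scalings, count filters, doublets kept, equal cell numbers, a filter on clone-named transcripts against host reads, mitochondrial genes left out, each Set left out and no block. The gate on a single gene was chosen after seeing the data.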

Additional observations from a re-analysis of the deposited data

How the results depend on the processing

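The replicate block for the Set decided the calls: without it edgeR called 0 genes in rods, 0 in cones, 0 in other cells and 0 for the rod against cone response. With the block it called 762 (381 higher and 381 lower), 85, 43 and 4. The unblocked log2 changes in rods were -1.69 for GNGT1 (edgeR unadjusted p = 0.0155) and -1.63 for GNGT2 (0.0066).

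Leaving out 1 Set gave 390 to 670 genes in rods, 10 to 494 in cones, 1 to 361 in other cells and 1 to 58 for the rod against cone response. In rods a gate at 3 times the other gene gave 338, the filter on clone-named transcripts 1463 and the single-gene gate 115. In cones library totals gave 243, no filter on low counts 358, a gate at 2 UMIs 34, a gate at 5 UMIs 48, equal cell numbers 18 and the clone-named filter 294. In other cells DESeq2 gave 199, library totals 95, no filter 366, a gate at 2 UMIs 71, a gate at 3 times the other gene 309, the gate on cells thinned to 2000 UMIs 7, equal cells 2, the clone-named filter 141 and the single-gene gate 286. For the rod against cone response DESeq2 gave 2, no filter 28, a gate at 5 UMIs 7 and the clone-named filter 2. Library totals moved the median of all genes in rods to -0.19 and the calls to 269 higher and 806 lower. The cause of these moves was not tested.

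Signs turned for subunit changes that were not called. Leaving out 1 Set gave GNAT1 log2 changes of -0.823 to 0.473 in cones, -0.134 to 0.438 in rods, -0.134 to 0.212 in other cells and -0.409 to 0.152 for the rod against cone response. It gave GNAT2 changes of -0.0332 to 0.648 in cones and -0.989 to 0.209 in other cells, and GNGT1 changes of -0.51 to 0.433 in other cells. GNAT1 also turned in cones with DESeq2 (-0.268), library totals (-0.0527) and the clone-named filter (-0.388), in other cells at 5 UMIs (-0.0626) and with the stricter cell filter (-0.0672), and in the rod against cone response with DESeq2 (0.151) and the clone-named filter (0.338). GNAT2 turned in other cells at 3 times the other gene (0.696), with the thinned gate (0.433) and with the single-gene gate (0.699), and in the rod against cone response with the clone-named filter (-0.0323). GNGT1 turned in other cells without the replicate block (0.0691), at 2 UMIs (0.0345), with the stricter cell filter (0.127) and with equal cells (0.272). With equal cells the rod against cone response of GNB3 was -0.00389 and that of GNGT2 -0.00032.

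Depth limits cones most: 34 cells and 542401 UMIs in the transplanted sample of Set 2. The gate at 3 times the other gene, the thinned gate and the single-gene gate left that sample 19, 16 and 9 cones, so cones and the rod against cone response were not fitted there.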
